A study of Mus musculus with 12 samples.

Results

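A set of 1446 enhancer-like regions was examined in which a peak of monomethylated histone H3 lysine 4 (H3K4me1) was listed both with the LSD1 inhibitor S2101 and with vehicle, while a peak of the dimethylated form (H3K4me2) was listed with vehicle and not with S2101. The members were found by pooling the peaks of all 6 deposited lists and merging those that overlap by at least 1 bp, which gave 51372 regions. A region was a member if it overlapped H3K4me1 peaks of both treatments, an H3K4me2 peak of the vehicle list, no H3K4me2 peak of the S2101 list and no peak of the trimethylated form (H3K4me3) in either treatment. The members made up 2.81% of all regions (95% Wilson interval 2.68 to 2.96%, counting error only). The members were chosen by the measured presence of H3K4me1 and H3K4me2 peaks in both treatments, so these values describe the set and are not a result about it. No gene annotation or genome of the build of the files, mm9, was used here, so regions are named by position, and neither genes nor sequences are attached.

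The cells were C2C12, an established line of mouse muscle precursor cells that form myotubes in low serum. They were differentiated in medium with 2% horse serum and either S2101 at 10 µM or the vehicle, and were taken at 48 h. Chromatin immunoprecipitation followed by sequencing (ChIP-seq) gave 1 library per mark and treatment, so no difference between treatments has a replicate check or a test. Per the labels, the mono- and dimethyl libraries belong to experiment 1 and the trimethyl libraries to experiment 2, so for H3K4me3 mark and experiment cannot be told apart. The lists hold between 13589 peaks (H3K4me3, vehicle) and 40432 peaks (H3K4me1, vehicle), and their read depth is unknown. The H3K4me1 list covered 9.34 Mb with S2101 and 26.9 Mb with vehicle, and the H3K4me2 list 15.9 Mb with S2101 and 34.1 Mb with vehicle. The H3K4me1 list held 20664 peaks with S2101 and 40432 with vehicle, while the H3K4me2 list held more peaks with S2101, 24444, than with vehicle, 21447. A peak that is not listed can be one below the calling threshold, and the part of the list-wide difference in the values of the members was not tested.

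Methylation of H3K4 marks the parts of the genome that are read or ready to be read. Trimethylation is typical of active promoters, monomethylation of enhancers and promoter flanks, and dimethylation occurs at both. LSD1, the product of Kdm1a, is a demethylase of the mono- and dimethyl forms that cannot act on the trimethyl form, and in myoblasts it works together with the transcription factors MyoD and MEF2. Regions with H3K4me1 and H3K4me2 but no H3K4me3 are the usual picture of an enhancer away from a promoter, and "enhancer-like" is used here in that sense only.

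The members are one of 4 outcomes among vehicle regions of this enhancer-like kind. With vehicle, 3501 regions held H3K4me1 and H3K4me2 and lay clear of H3K4me3 in both treatments. Of these, 41.3% were members (95% Wilson interval 39.7 to 42.9%), with H3K4me1 listed again and H3K4me2 not. Neither mark was listed with S2101 in 1035 regions (29.6%), both were listed in 633 (18.1%), and H3K4me2 alone was listed in 387 (11.1%). The share of members ranged from 24.6% on chromosome 7 to 51.8% on chromosome 15 over the 19 autosomes. With a score of at least 200 required of every peak, 493 regions met the rule, 33.7% of the vehicle regions of this kind.

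The share of regions without S2101 H3K4me2 is given here by whether H3K4me1 was listed in both treatments. Of the 2079 regions with H3K4me1 in both treatments, 69.6% had no S2101 H3K4me2 peak and were thus members (67.5 to 71.5%). Of the 1422 regions with H3K4me1 in vehicle only, 72.8% had no S2101 H3K4me2 peak (70.4 to 75.03%). The first share was the higher on 8 autosomes and the lower on 11. As background, 72.5% of all 4969 vehicle H3K4me2 regions without H3K4me3 had no S2101 H3K4me2 peak, and 25.3% of all 18211 vehicle H3K4me2 regions. The rule used this contrast, so the members' share says nothing beyond how they were chosen.

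The authors' score, which ranks peaks within a list only, went with both outcomes. The regions were placed in 5 bins by the score of their vehicle H3K4me2 peak, with edges that put equal numbers of H3K4me1-keeping regions in each bin. In the lowest bin, H3K4me2 was not listed with S2101 in 87.7% of 416 regions with H3K4me1 in both treatments and in 88.9% of 369 regions with H3K4me1 in vehicle only. In the highest bin, with scores from 325.06, these shares were 37.3% of 415 and 36.4% of 187. The weighted difference over bins was 0.562 percentage points (95% interval −2.25 to 3.37). It was 6.73 (2.92 to 10.5) with peaks under a score of 200 dropped from every list. S2101 H3K4me2 peaks under 200 then counted as absent, so 6.73 does not describe a stricter subset of the members. Where both marks were listed in both treatments, the top S2101 H3K4me2 score was 152.39 at the median. With both lists of each mark cut to equal length by score, the difference was 2.98 (0.0383 to 5.92). The longer S2101 H3K4me2 list lost peaks there too. With peaks up to 500 bp apart merged, the difference was −1.32 (−4.38 to 1.73).

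H3K4me1, in turn, was listed again more often the higher its own vehicle score. Vehicle H3K4me1 regions without H3K4me3 held an S2101 H3K4me1 peak in 33.7% of 30820 cases, and all vehicle H3K4me1 regions in 33.5% of 36274. Where H3K4me2 was listed with vehicle only, 58.3% of 2481 regions held H3K4me1 again, and these are the members. Where H3K4me2 was listed in both treatments it was 62.1% of 1020, and where there was no H3K4me2 at all 30.2% of 27056. In the lowest of 5 bins by vehicle H3K4me1 score, these shares were 23.3% (19.8 to 27.1%), 26.2% (20.5 to 32.7%) and 15.7% (15.1 to 16.3%) in the same order. In the highest bin they were 95.01% (92.7 to 96.6%), 98.6% (96.1 to 99.5%) and 90.5% (88.3 to 92.3%). At like H3K4me1 scores, the regions with vehicle H3K4me2 thus stood above those without in all 5 bins, by less than over the whole lists. Region width was not matched, and a wider region has more room for an S2101 peak. Members were 1681.5 bp wide at the median, and regions with both marks in both treatments 1934 bp. Regions with H3K4me1 in both treatments and no H3K4me2 were 818 bp wide. The part of width in these shares was not tested.

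**Figure D1:**
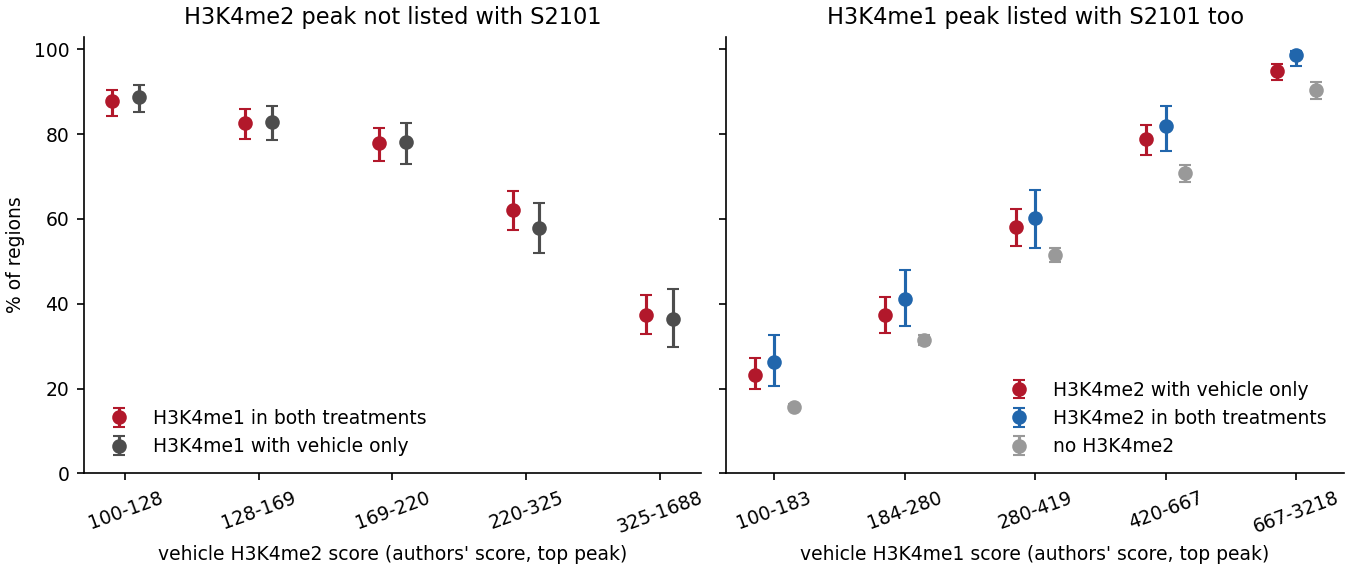
Share of enhancer-like regions without an S2101 H3K4me2 peak, by vehicle H3K4me2 score (left), and with an S2101 H3K4me1 peak, by vehicle H3K4me1 score (right), in % of regions with 95% Wilson intervals (counting error only). The left panel goes from 87.7% to 37.3% for regions with H3K4me1 in both treatments and from 88.9% to 36.4% for the others, while in the right panel regions with H3K4me2 in vehicle only go from 23.3% to 95.01%.

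The members combined a high-ranking H3K4me1 peak with a low-ranking H3K4me2 peak. The rule takes regions by both outcomes, and both went with score, so these ranks follow in part from the rule. The members' highest S2101 H3K4me1 score was 195.80 at the median (quartiles 138.63 and 295.17), at percentile 73.1 of that list. With vehicle, their H3K4me1 score was 483.16 at the median (305.46 and 743.82), at percentile 90.0 of the vehicle list. Percentiles of lists of different length show no change. They rank the top score of a region against single peaks, and 41.6% of members held more than 1 vehicle H3K4me1 peak. The members' vehicle H3K4me2 score was 171.34 at the median, at percentile 17.3 of its list. That list also holds peaks of regions with H3K4me3, which the rule left out. Only 4969 of 18211 vehicle H3K4me2 regions lacked H3K4me3. In the 633 regions with both marks in both treatments, the vehicle H3K4me1 percentile was also 90.0, but the vehicle H3K4me2 percentile was 32.6. In the 1035 regions with neither mark listed with S2101, they were 60.5 and 14.04. The members' vehicle H3K4me2 peaks were 906 bp wide at the median (95% order-statistic interval 887 to 927), against 1212 bp (1174 to 1256) where both marks were listed in both treatments and 810 bp (796 to 828) where neither was listed with S2101.

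Within members, H3K4me1 covered about 1 base with S2101 for every 2 with vehicle. S2101 H3K4me1 peaks covered 1194589 bp in all and vehicle H3K4me1 peaks 2283651 bp, a ratio of 0.523 (0.505 ± 0.044, SD over 19 autosomes, which are not replicates). Per region, the covered length was 641 bp at the median with S2101 (quartiles 401 and 1066 bp) and 1395.5 bp with vehicle (918 and 1985 bp). The median ratio per region was 0.521 (quartiles 0.364 and 0.687). S2101 covered more bases than vehicle in 77 members, 5.33% (4.28 to 6.61%), against 11.4% of all 12134 regions with H3K4me1 in both treatments and 4.90% of the regions with both marks in both. It covered at most 25% of the vehicle length in 133 members (9.20%), against 9.64% of regions with both marks in both treatments and 3.22% of regions with H3K4me1 in both and no other mark. It covered at least 75% in 266 members (18.4%), against 20.7% and 35.0% of these classes. A member had 1 S2101 H3K4me1 peak in 911 cases, 2 in 384 and up to 7, and the number of H3K4me1 peaks was the same in both treatments in 810 members, higher with S2101 in 315 and lower in 321.

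The ratio was also set beside that of other regions whose vehicle H3K4me1 had a like length. Over all lengths, the total ratio was 0.523 in members, 0.532 in regions with both marks in both treatments, 0.610 in regions with H3K4me1 in both treatments and no other mark, and 0.561 in all regions with H3K4me1 in both. The members were placed in 5 groups of about equal size by vehicle H3K4me1 length. In the shortest, 259 to 821 bp, the median ratio was 0.690 in members, 0.735 in regions with both marks and 0.737 in regions with H3K4me1 alone. In the next, 824 to 1215 bp, these were 0.478, 0.505 and 0.516. In the middle group, 1216 to 1612 bp, they were 0.437, 0.437 and 0.466. From 1614 to 2151 bp they were 0.479, 0.414 and 0.443, and from 2157 bp 0.522, 0.509 and 0.532. Members were thus below regions with H3K4me1 alone in 4 of 5 groups and above them in 1. The ratio of members did not follow length in 1 direction. Vehicle length is also the denominator of the ratio, and S2101 H3K4me1 covered at least 197 bp in every member. The ratio of short regions is therefore bounded from below.

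**Figure D2:**
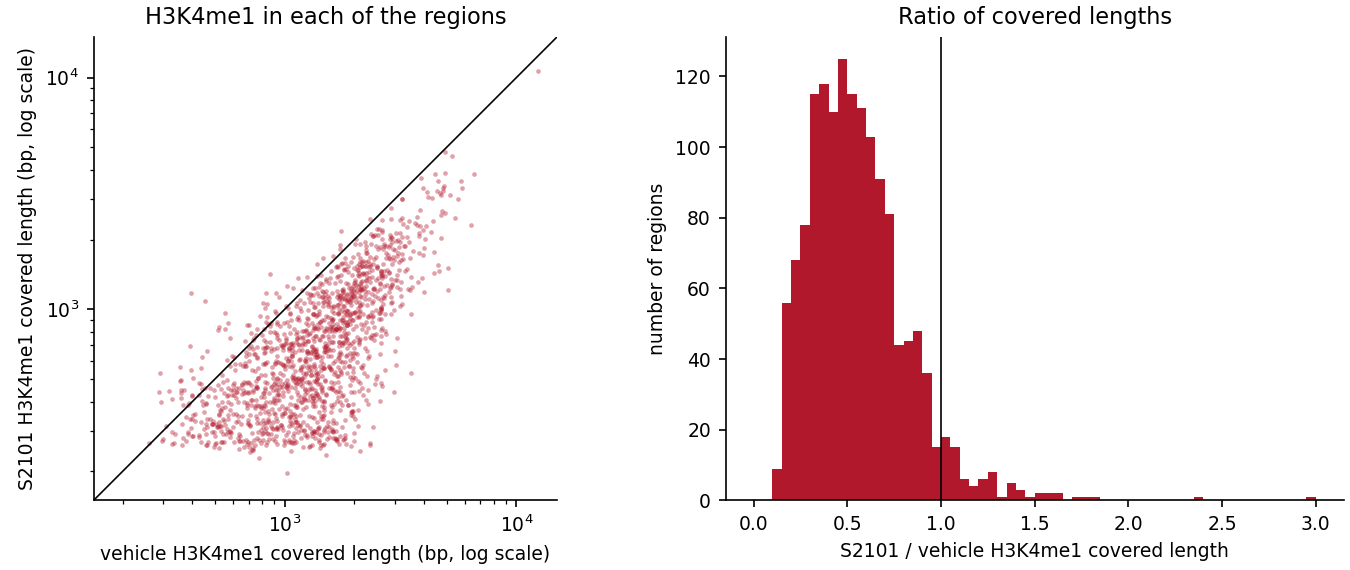
H3K4me1 covered length in each of the 1446 members, S2101 (vertical) against vehicle (horizontal) in bp on log scales with the line of equality (left), and the ratio S2101 over vehicle per member (right). Most members lie below the line, with a median ratio of 0.521, and 77 lie above it.

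Most S2101 H3K4me1 lay inside the vehicle H3K4me1, and in most members it overlapped the vehicle H3K4me2 peak. In a member, merging already requires each S2101 H3K4me1 peak to overlap a vehicle H3K4me1 or H3K4me2 peak. High overlap shares thus follow in part from the rule and describe the set only. Of the S2101 H3K4me1 bases in members, 90.9% fell within vehicle H3K4me1 peaks, and the H3K4me1 peaks of both treatments overlapped directly in 1407 members (97.3%). An S2101 H3K4me1 peak overlapped the vehicle H3K4me2 peak itself in 1275 members (88.2%, 86.4 to 89.7%), and the 3 peaks shared a base in 1219 (84.3%). In the regions with both marks in both treatments these shares were 91.8% and 88.8%, 92.0% of S2101 H3K4me1 bases fell within vehicle H3K4me1, and the H3K4me1 peaks overlapped directly in 97.8%. The vehicle H3K4me2 peak lay wholly inside S2101 H3K4me1 in 12 members and wholly inside vehicle H3K4me1 in 277 (19.2%). Of the vehicle H3K4me2 bases, 37.5% were covered by S2101 H3K4me1 and 75.6% by vehicle H3K4me1. In 356 members (24.6%, 22.5 to 26.9%), S2101 H3K4me1 covered H3K4me2 bases that had no vehicle H3K4me1, against 197 (31.1%, 27.6 to 34.8%) of the regions with both marks in both treatments.

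Vehicle H3K4me1 was covered again with S2101 somewhat less inside the vehicle H3K4me2 peak than outside it, in members and in the regions with both marks in both treatments. Inside the vehicle H3K4me2 peak, 46.3% of vehicle H3K4me1 bases were covered again with S2101, and outside it 48.8%. The share inside was the higher on 6 of 19 autosomes. In the regions with both marks in both treatments it was 46.7% inside and 51.9% outside, with the share inside higher on 4 of 19. At the middle of the H3K4me2 peak, 35.0% of members were covered by H3K4me1 with S2101 and 74.9% with vehicle. At 500 bp to either side it was 37.2% with S2101 and 69.7% with vehicle, and at 1 kb 25.2% and 50.5%. Of the positions under vehicle H3K4me1, 44.2% (41.3 to 47.2%) were also under S2101 H3K4me1 at the middle, 48.0% (45.8 to 50.2%) at 500 bp and 42.6% (40.1 to 45.2%) at 1 kb. This last share was lower at the middle than at 500 bp on 11 of 19 autosomes, and S2101 coverage itself on 9 of 19, so the shallow dip was not shared by all autosomes.

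**Figure D3:**
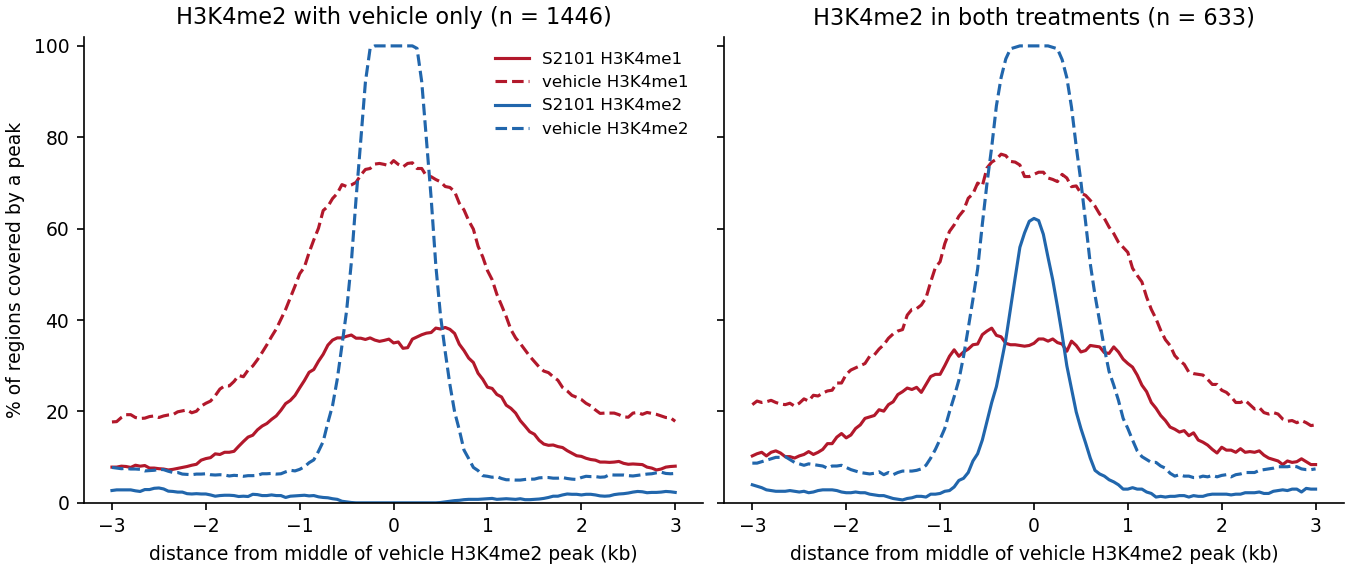
Share of regions covered by an H3K4me1 or H3K4me2 peak (%) by distance from the middle of the widest vehicle H3K4me2 peak (kb), for the 1446 members (left) and the 633 regions with both marks in both treatments (right), with S2101 (solid) and vehicle (dashed). H3K4me1 at the middle is at 35.0% with S2101 and 74.9% with vehicle in members, and at 34.9% and 71.9% in the other regions, where S2101 H3K4me2 stands at 62.2%.

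Most members lay well away from H3K4me3. The distance to the nearest H3K4me3 peak of either treatment was 19044.5 bp at the median (95% order-statistic interval 17447 to 20804; quartiles 6477.5 and 47808 bp). It was at most 10 kb in 34.3% of members (31.9 to 36.8%), at most 1 kb in 4.98%, and over 50 kb in 24.0%. Regions with both marks in both treatments lay within 10 kb in 37.1% of cases (members minus these, −2.82 percentage points, 95% Newcombe interval −7.35 to 1.61). Regions with neither mark listed with S2101 did so in 31.2% (difference 3.09, −0.663 to 6.80). Regions with H3K4me1 alone in both treatments did so in 26.9% (difference 7.44, 4.84 to 10.1). Over 50 kb away lay 21.0% of the regions with both marks in both treatments (difference 2.99, −0.979 to 6.74), 30.9% of those with neither mark listed with S2101 (−6.92, −10.5 to −3.36) and 29.9% of those with H3K4me1 alone (−5.89, −8.24 to −3.42). Members thus lay far from H3K4me3 less often than both of these last classes. The intervals take regions as independent, which neighbouring regions are not, and no test was made.

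Members were found on every autosome, most of them with no other member within 12.5 kb. Chromosome 15 held 143 members and chromosome 11 held 142. Chromosome 15 thus had 9.89% of members and 6.07% of all regions, while chromosome 7 had 30 members, 2.07% of members and 5.45% of all regions. Chromosome X had none, and 4 regions there held vehicle H3K4me1 and H3K4me2 without H3K4me3. On chromosome 15, 67.5% of the 212 regions with H3K4me1 in both treatments were members, and on chromosome 7 it was 81.1% of 37, so its high share went with the number of regions that held H3K4me1 again, 212 of 276 on chromosome 15 and 37 of 122 on chromosome 7. The nearest other member lay 110863 bp away at the median (100374 to 126231), and 295451 bp away with the stricter score threshold. Members within 12.5 kb of each other formed 121 groups that took in 269 members (18.6%), and the other 1177 had no member that near. Regions of other classes can lie nearer. Spacing is not given for other classes, so these values do not show members to be more or less isolated.

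**Figure D4:**
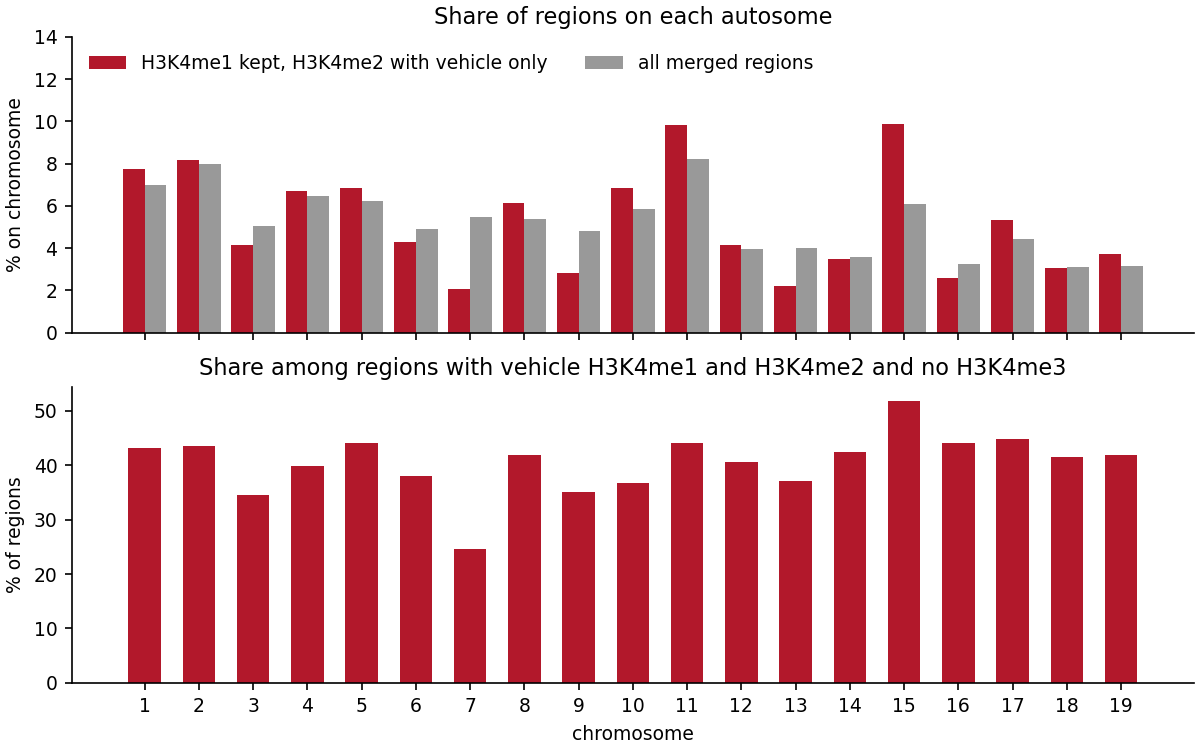
Share of the 1446 members and of all 51372 merged regions on each autosome (%, top), and members as a share of the vehicle regions with H3K4me1 and H3K4me2 and no H3K4me3 (%, bottom). Chromosome 15 has the highest share in the bottom panel (51.8%) and chromosome 7 the lowest (24.6%).

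The 5 largest groups are named after their values had been seen. The largest was 5 members on chromosome 15 (85896861 to 85927317, 30457 bp). H3K4me1 covered 5929 bp of its members with S2101 and 9140 bp with vehicle, and vehicle H3K4me2 covered 4752 bp. Groups of 4 lay on chromosome 14 (26291695 to 26318470), chromosome 8 (93898704 to 93920192), chromosome 5 (36246327 to 36266289) and chromosome 11 (97666577 to 97680484). On chromosome 14, H3K4me1 covered 7248 bp with S2101 and 11485 bp with vehicle, and on chromosome 5 it covered 2969 bp and 8108 bp. None of these 5 groups held an S2101 H3K4me2 peak or an H3K4me3 peak between its first and last member.

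Single members ranged from regions with almost all of their H3K4me1 to regions with short remnants. The member with the highest vehicle H3K4me2 score, and with the widest such peak, was on chromosome 2 (84476133 to 84480988). Its H3K4me1 covered 1461 bp in 3 peaks with S2101 and 4615 bp in 2 peaks with vehicle, with top scores of 208.12 and 1093.48. Its vehicle H3K4me2 peak ran over 3707 bp with a score of 1183.76, and the nearest S2101 H3K4me2 peak lay 259 bp outside the region. The nearest H3K4me3 peak lay 1479 bp outside it with S2101 and 1565 bp with vehicle. The S2101 H3K4me1 peaks lay toward the ends of the region, 2 at the left and 1 at the right.

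The second by vehicle H3K4me2 score was the widest member, 12574 bp on chromosome 15 (77626432 to 77639005). S2101 H3K4me1 covered 10636 bp in 7 peaks, with a top score of 1638.5, the highest of any member. With vehicle, a single H3K4me1 peak covered 12363 bp with a score of 3100. The vehicle H3K4me2 peak, 3471 bp with a score of 1049.43, lay wholly inside vehicle H3K4me1 and had 2777 bp under S2101 H3K4me1. Outside the region, the nearest S2101 H3K4me3 peak lay 28368 bp away and the nearest S2101 H3K4me2 peak 7113 bp. Here most of the H3K4me1 domain was listed in both treatments while a strong H3K4me2 peak was listed in 1.

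The next members by vehicle H3K4me2 score were smaller. On chromosome 5 (144397335 to 144401130), H3K4me1 covered 976 bp with S2101 and 2392 bp with vehicle, beside a vehicle H3K4me2 peak of 2969 bp with a score of 986.88. On chromosome 11 (100823175 to 100826067) it covered 1444 bp and 2810 bp, beside a vehicle H3K4me2 peak of 2286 bp with a score of 838.72. Also on chromosome 5 (114819860 to 114824630), it covered 2652 bp in 6 peaks with S2101 and 4764 bp in 1 peak with vehicle, and the vehicle H3K4me2 peak of 2978 bp lay wholly inside the vehicle H3K4me1 peak. From these members, in the order given, the nearest S2101 H3K4me3 peak lay 817, 2508 and 2906 bp away. The nearest S2101 H3K4me2 peak lay 11903, 2668 and 2932 bp away. The fifth widest vehicle H3K4me2 peak, 2688 bp on chromosome 6 (31064432 to 31067119), spanned its whole region, with 453 bp of S2101 and 1596 bp of vehicle H3K4me1.

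After that region, the 4 members with the highest S2101 H3K4me1 scores had vehicle H3K4me2 scores between 182.1 and 409.13. On chromosome 8 (96375070 to 96379869), H3K4me1 covered 3570 bp with S2101 and 4576 bp with vehicle, with scores of 1367.86 and 1930.86, and vehicle H3K4me2 had a score of 188.82. On chromosome 15 (79988399 to 79992257) it covered 3699 bp with S2101 and 3859 bp with vehicle, and the vehicle H3K4me2 peak of 1445 bp lay wholly under H3K4me1 of both treatments. Again on chromosome 15 (72979089 to 72982301), it covered 2985 bp and 3213 bp, and 2286 of 2448 bp of vehicle H3K4me2 were under S2101 H3K4me1. In these last 2 regions the S2101 H3K4me1 length was 0.959 and 0.929 of the vehicle length, while no H3K4me2 peak was listed in them with S2101. The nearest S2101 H3K4me2 peak lay 11243 bp from the first and 2322 bp from the second. The nearest S2101 H3K4me3 peak lay 11098 bp and 2931 bp away, and the nearest vehicle one 11197 bp and 30344 bp. On chromosome 11 (61958918 to 61961488), a single S2101 H3K4me1 peak of 1920 bp scored 1126.34 where vehicle had 2 peaks over 2012 bp, the higher at 888.55.

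By bases of S2101 H3K4me1, the region of 12574 bp was followed by 2 others on chromosome 15. At 83236953 to 83242216, H3K4me1 covered 4752 bp with S2101 and 4940 bp with vehicle, and at 34338306 to 34345097 it covered 4586 bp and 5284 bp. Next came 2 regions on chromosome 11. At 75375575 to 75381168 it covered 3870 bp with S2101 and 4930 bp with vehicle, and at 77594052 to 77600637 it covered 3835 bp and 6533 bp. The top vehicle H3K4me2 score of these 4 regions lay between 170.57 and 481.13.

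The extremes of the length ratio were chosen after their values had been seen. The largest ratio, 2.99, was on chromosome 14 (48817206 to 48819045), where H3K4me1 covered 1174 bp with S2101 and 393 bp with vehicle. On chromosome 1 (133837935 to 133839643) it covered 1086 bp and 453 bp. The smallest, 0.111, was on chromosome 9 (57801294 to 57803638), where it covered 261 bp with S2101 and 2345 bp with vehicle, with scores of 103.32 and 1267.57. A score of 103.32 is close to the lowest in that list, 100.

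Some members lay close to the edge of the rule. The members nearest to an S2101 H3K4me2 peak lay 7 bp from it on chromosome 16 (22839592 to 22840937), 11 bp on chromosome 13 (70793280 to 70795269) and 62 bp on chromosome 3 (107631896 to 107632772). Their vehicle H3K4me2 scores were 139.32, 344.23 and 134.37. In all, 100 members (6.92%) had an S2101 H3K4me2 peak within 1 kb. Just outside the rule, regions on chromosome 4 (88427307 to 88427628), chromosome 17 (29193121 to 29196083) and chromosome 8 (87234781 to 87236628) met every other part of it but held 139, 192 and 213 bp of S2101 H3K4me2, with scores of 129.96, 112.39 and 108.70. Scores start at 100 in these lists, and 152 members had a vehicle H3K4me2 score under 110 and 211 an S2101 H3K4me1 score under 120.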

How the data were processed

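Peak lists of 6 of the 12 samples were used, 1 per mark (H3K4me1, H3K4me2, H3K4me3) and treatment (S2101, vehicle). The 4 inputs and 2 H3 samples were not analysed here. Each list is of 1 library and was made by MACS run in Galaxy, per the file headers. The submitters' processing notes name Bowtie2, deepTools and build mm9. The sources used here do not give caller settings, input or read depth, and a list with fewer reads or weaker enrichment can hold fewer, narrower and lower-scoring peaks. Each peak carries a score given by the authors, whose quantity the headers do not name. It served only to rank or filter peaks within a list.

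Peaks were merged at 1 bp of overlap, and marks, covered bases, peak counts and top scores were taken per region. Coordinates are 1-based. Shares carry 95% Wilson intervals, differences of shares Newcombe intervals and medians binomial order-statistic intervals, all for counting error only, since neighbouring regions are not independent. The score-matched difference weights 5 bins by the regions on both sides and has a normal-approximation interval. With 1 library per mark and treatment no test was made. Members, lists and bins were chosen with earlier results of these data known. Named regions are the 5 members with the highest vehicle H3K4me2 score, the widest vehicle H3K4me2 peak, the highest S2101 H3K4me1 score and the most S2101 H3K4me1 bases, and 3 on each side of the rule's edge. The gene table at hand is of another build, so no genes were attached. The functions gave the same regions, overlaps and distances as bedtools 2.31.1 when tested on simulated data. Software was matplotlib 3.10.9, scipy 1.17.1, pandas 2.3.3, numpy 2.4.6 and Python 3.11.15.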

Additional observations from a re-analysis of the deposited data

How the results depend on the processing

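Of 70 values recomputed under 7 alternatives, 47 stayed within 1.5 times the count or within the interval given (for the length ratio, 1 SD over autosomes) and 23 moved. Requiring 100 bp of coverage left all 10 results unchanged, and these values are among the 47. It is no check of them, since peaks were already longer than this bound. Where both marks were listed in both treatments, S2101 H3K4me2 covered at least 139 bp and S2101 H3K4me1 at least 162 bp. Leaving out chromosome 15, an alternative chosen after seeing the data, moved none of the 10 results. Requiring a score of at least 200 dropped weaker peaks from every list, which is stricter for presence and looser for absence. It gave 493 members, 33.7% of the starting regions, 80.6% of those with H3K4me1 in both treatments and a median H3K4me2 width of 1333 bp. It also gave 37.3% within 10 kb of H3K4me3, a score-matched difference of 6.73 points and a median spacing of 295451 bp. Lists of equal length gave 51.5%, 76.4%, 934.5 bp and a spacing of 97566 bp. Merging peaks up to 500 bp apart gave 44.1% of the starting regions, 76.8% with direct overlap of S2101 H3K4me1 and vehicle H3K4me2, a length ratio of 0.477, 28.6% within 10 kb and a spacing of 145860 bp. Requiring absence within 1 kb gave 66.8% of those with H3K4me1 in both treatments and 30.6% within 10 kb. Requiring the 3 peaks to share a base gave 34.9% of the starting regions, 100% direct overlap by construction and a spacing of 131738 bp. Of the 17 named members, 11 overlapped a member with wider merging, 9 with the score threshold and 12 with absence required within 1 kb. Leaving out chromosome 15 also left 12, within the 1.5 times that counts as unmoved. No paired analysis was possible because each mark and treatment has 1 library. The depth is unknown, so the cause of these shifts was not tested.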
